A study of Mus musculus with 10 samples.

Results

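EGR, NR4A and IER genes are early response genes, which cells transcribe quickly and briefly after a stimulus. The 9 genes described here are Egr1, Egr2 and Egr3, Nr4a1, Nr4a2 and Nr4a3, and Ier2, Ier3 and Ier5. They were chosen by name from the 41813 gene rows of each deposited table, and each of the 9 matched 1 row and had enough reads to be tested. RNA was profiled from dendritic cells, which present antigen to T cells, grown from mouse bone marrow and labelled CD11c+ MHCIIhigh. The 6 RNA libraries were 3 titled activated and 3 titled non-activated. By the series' design text LPS, the bacterial lipopolysaccharide that TLR4 senses, was given to both groups, and both were kept for 24 h with CD4+ OT-II T cells, whose receptor recognises the ovalbumin peptide OVA323-339. Only the dendritic cells called psDCs there had been pulsed with that peptide, and those called nsDCs had not. The sample labels instead record LPS for the activated cells and no stimulation for the non-activated ones, so the groups are called here by their titles. The labels give no strain, age or number of animals, and do not say how dendritic cells were separated from T cells before RNA extraction. They also do not say whether replicates were separate cultures or animals, and the p-values below thus reflect the spread among these libraries, which may be technical. The 4 ATAC samples, 2 per group, were not analysed here.

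The EGR proteins are zinc finger transcription factors that bind GC-rich sites and are held in check by the corepressors Nab1 and Nab2. The NR4A proteins, also known as Nur77, Nurr1 and Nor1, are orphan nuclear receptors whose activity is set mainly by how much of them a cell makes. The IER genes encode short-lived proteins that act on survival and stress pathways. Many of these genes answer to MAP kinase, calcium and cAMP signals through serum response factor, CREB and related factors. In T cells, receptor engagement is a classical inducer of the EGR and NR4A genes, and in mouse dendritic cells Nr4a3 is known to support Ccr7-dependent migration.

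In activated cells, the 3 IER genes rose modestly, Nr4a3 fell to less than the level of any non-activated library, and the EGR genes did not pass the test. Ier2 was 1.60-fold, Ier3 1.49-fold and Ier5 1.38-fold higher in activated than in non-activated cells, and Nr4a3 was 2.47-fold lower. The Ier3 call was the least stable: it held under 9 of 15 alternative settings, and those of Ier2, Ier5 and Nr4a3 under all 15. Of the 9 genes, 3 were higher, 1 was lower and 5 did not pass (edgeR's quasi-likelihood test, Benjamini-Hochberg adjusted p under 0.05). In the same test 27.6% of 13946 genes passed, 15.9% higher and 11.7% lower in activated cells. The 4 of 9 called here and the counts of each list below are to be read against these shares. This fit leaves out the replicate number. With the number as a block 5 of the 9 genes passed, Nr4a2 being added as higher, against 37.2% of all genes. The split of all calls depended on scaling, with 57.6% of them higher after TMM scaling and 44.1% with library size alone, and the lower calls numbered 1061 without non-activated replicate 2 against 1632 with all libraries. The median log2 fold change of the 9 genes was 0.47, beside 0.01 over all tested genes. In these bulk libraries fewer cells of a type and less RNA per cell cannot be told apart.

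The libraries held 21338012 to 27404937 expected counts, and the common biological coefficient of variation was 16.9%. Dendritic cell markers were plentiful, with all 15 listed genes tested. In activated cells 7 were higher, 0 lower and 8 did not pass, and the median log2 fold change was -0.01. With the replicate block 2 were called lower, H2-Aa (log2 -0.37 without the block) and H2-Eb1 (-0.29), and DESeq2 called 1 lower. Fscn1 (3122 ± 377 against 533 ± 83.8 CPM, read counts scaled to library size with TMM; SD, n = 3), Irf4 (414 ± 23.8 against 168 ± 3.48 CPM), Ccr7 (1798 ± 294 against 638 ± 56.7 CPM) and Cd86 (531 ± 86.4 against 298 ± 21.9 CPM) had the smallest p of these. Itgax, which encodes CD11c, stood at 198, 442 and 328 CPM in activated and 295, 437 and 307 CPM in non-activated libraries. Both replicate 1 libraries stood apart for T cell receptor transcripts: Trac was 7420 CPM in activated replicate 1 and 7444 CPM in non-activated replicate 1, and 8.88 and 27.8 CPM in activated replicates 2 and 3 and 2.73 and 5.11 CPM in non-activated replicates 2 and 3. Trbc2 showed the same split (107 and 106 CPM in the replicate 1 libraries, 0.504 to 1.88 CPM in the others). Results for the 9 genes are therefore given with and without these libraries. Trac and Trbc2 were singled out after their values were seen.

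T cells express the EGR and NR4A genes too, so the whole T cell list was set beside them. Of its 24 genes 12 had enough reads to be tested, 4 were higher and 1 lower in activated cells, and none was at 0 in all libraries. Only 3 of its genes passed without activated replicate 1 or without non-activated replicate 2, and 2 without non-activated replicate 3. Leaving out Trac, Trbc1 and Trbc2, the other 21 genes summed to 85.2, 50.2 and 49.8 CPM in activated and to 50.9, 74.1 and 68.8 CPM in non-activated libraries. The list had 7 calls without both replicate 1 libraries. Activated replicate 1 was the highest of all 6 libraries for 17 of these 21 genes. Cd3e, a defining marker, had 1.90, 0.245 and 0.408 CPM in activated and 0.152, 0.168 and 0.243 CPM in non-activated libraries. It was thus low throughout, and highest in activated replicate 1. Il2 had 8.62, 0.490 and 0.531 CPM in activated libraries and 0, 0 and 0.081 CPM in non-activated ones. Lck (4.37 ± 0.692 against 0.999 ± 0.279 CPM) and Zap70 (1.96 ± 2.01 against 0.249 ± 0.191 CPM) were the other higher members with the smallest p, and Icos (5.10 ± 1.33 against 12.9 ± 2.93 CPM) was lower. The Zap70 call was lost on TPM, without activated replicate 1, and without non-activated replicate 2 or 3. Il2 lost its call in DESeq2, on TPM with 1 added, and without any 1 non-activated library. Il2 and Zap70 had few reads in non-activated libraries and could enter the test only through the activated ones. A lower call was thus not open to them, which tilts the split of this list into higher and lower calls.

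**Figure D1:**
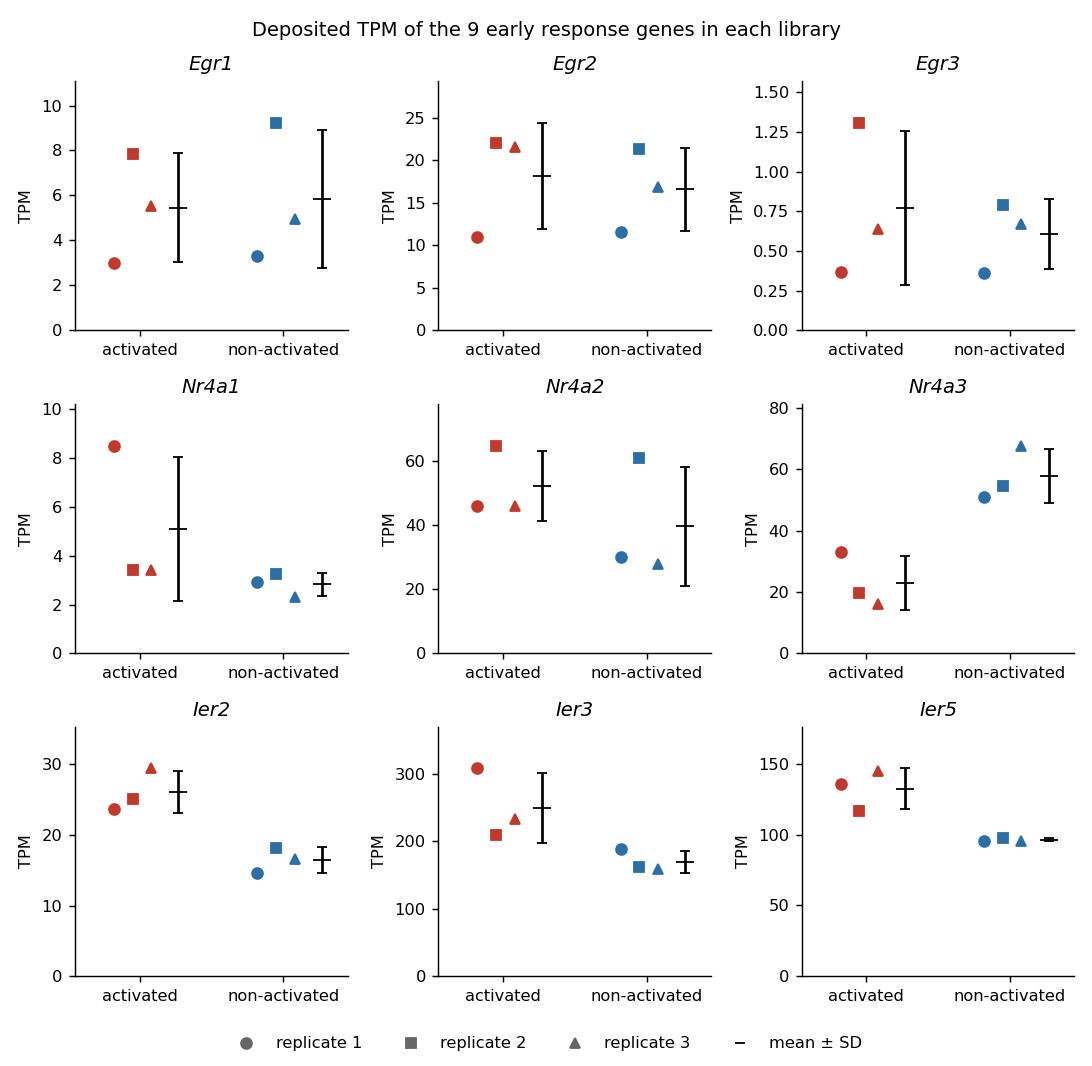
Deposited TPM (transcript abundance scaled by gene length, y axis from 0) of each of the 9 genes in the 3 activated (left) and the 3 non-activated (right) libraries; symbols mark replicate numbers and bars the mean ± SD of 3 libraries. The groups do not overlap for Nr4a1, Nr4a3, Ier2, Ier3 and Ier5, and replicate 1 is the lowest of its group for Egr1, Egr2 and Egr3.

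TPM is scaled by gene length and so allows genes to be compared. Ier3 was the most abundant, at 249.7 ± 51.6 TPM in activated and 169 ± 16.2 TPM in non-activated cells (SD, n = 3), above 95.9% and 94.1% of tested genes. Ier5 followed in both groups, at 133 ± 14.2 TPM in activated and 96.4 ± 1.11 TPM in non-activated cells. Egr3 was the least abundant in both, at 0.773 ± 0.484 TPM and 0.607 ± 0.222 TPM, on 26 to 56 expected counts (activated) and 25 to 39 (non-activated) a library. The middle of the order differed between groups. In activated cells Nr4a2 (52.3 TPM) came next, followed by Ier2 (26.1 TPM), Nr4a3 (22.9 TPM) and Egr2 (18.2 TPM), and neighbours among these last 3 overlapped in range. In non-activated cells Nr4a3 came next (57.7 TPM), overlapping with Nr4a2 (39.7 TPM) only through the Nr4a2 value of non-activated replicate 2 (61.0 TPM). Egr2 (16.6 TPM) and Ier2 (16.4 TPM) followed and also overlapped. Egr1 and Nr4a1 stood below these in both groups, overlapping in activated cells (5.46 and 5.11 TPM) and not in non-activated cells (5.83 and 2.83 TPM).

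The IER genes were higher in activated cells. Ier2 (ENSMUSG00000053560), a growth factor-inducible gene on chromosome 8 at 84661331 to 84662852 of GRCm38.p6, had 22.3, 23.1 and 26.0 CPM in activated libraries and 13.8, 16.6 and 14.4 CPM in non-activated libraries. Every activated library was above every non-activated one, and its log2 fold change was 0.67 ± 0.11 (SE; edgeR adjusted p = 0.00267). It was higher in each of the 3 pairs of libraries with the same number and passed under all 15 alternative settings. Without both replicate 1 libraries it was 0.65 (edgeR adjusted p = 0.00937).

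Ier5 (ENSMUSG00000056708; chromosome 1, 155096367 to 155099636), which encodes a stress-induced protein that works with protein phosphatase 2A on the heat shock factor Hsf1, had 295.4, 248 and 294.8 CPM in activated libraries. Its non-activated values were 209, 205 and 191 CPM, and the groups did not overlap. Its log2 fold change was 0.47 ± 0.09 (SE; edgeR adjusted p = 0.00662), and the call held under all 15 alternatives, with adjusted p from 0.000186 to 0.0358. Without both replicate 1 libraries it was 0.44 (edgeR adjusted p = 0.0246).

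Ier3 (ENSMUSG00000003541; chromosome 17, 35821713 to 35822911), also called IEX-1, encodes a regulator of apoptosis. It had 206, 136 and 146 CPM in activated libraries and 126, 104 and 97.7 CPM in non-activated libraries. Activated replicate 1 was the highest, and the groups did not overlap. Activated replicate 1 was also the highest library for 17 of the 21 T cell genes above. Non-activated replicate 1 was likewise the highest of its group for Ier3. The sum of non-activated replicate 1 over those 21 genes was the lowest of its group (50.9 against 74.1 and 68.8 CPM). With Trbc1 and Trbc2 kept, its sum was the highest of its group (157 against 74.7 and 69.4 CPM). The part of T cells in the Ier3 level was not tested. The log2 fold change was 0.57 ± 0.16 (SE; edgeR adjusted p = 0.0337). Leaving out activated replicate 1 or 3 ended that call, with edgeR adjusted p of 0.0572 and 0.0542, as did leaving out non-activated replicate 2 or 3, with 0.108 and 0.126. It was lost on library size alone and on unfiltered TPM too, and the range over the 15 alternatives was 0.000998 to 0.126. The low end came from the fit with the replicate number as a block (log2 0.56 ± 0.08, SE). Without both replicate 1 libraries the log2 fold change was 0.46 and it passed (edgeR adjusted p = 0.00861). The ratios between the IER genes within a library changed little. Ier3 over Ier5, on the TPM scale, was 2.26, 1.79 and 1.61 in activated and 1.96, 1.65 and 1.66 in non-activated libraries, and all 3 IER ratios overlapped between groups.

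Of the NR4A genes, Nr4a3 carried the largest difference of the 9. Nr4a3 (ENSMUSG00000028341; chromosome 4, 48045078 to 48086447), which encodes Nor1, had 109, 68.1 and 54.5 CPM in activated libraries. In non-activated libraries it had 171, 186 and 217 CPM. The groups did not overlap, and activated replicate 1 was the closest to the non-activated libraries. The log2 fold change was -1.31 ± 0.23 (SE; edgeR adjusted p = 0.00403), and the gene was called lower under all 15 alternatives, with adjusted p up to 0.0356. Without both replicate 1 libraries it was -1.74 (edgeR adjusted p = 0.000167). Between libraries of the same number the log2 difference was -0.64, -1.45 and -1.99 for numbers 1, 2 and 3. Ccr7, the migration receptor that Nr4a3 is known to support in mouse dendritic cells, moved the other way, at 2069, 1485 and 1840 CPM in activated against 634, 583 and 696 CPM in non-activated libraries.

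Nr4a2 (ENSMUSG00000026826; chromosome 2, 57106830 to 57124003), which encodes Nurr1, had 37.8, 45.7 and 36.4 CPM in activated and 27.1, 38.0 and 28.8 CPM in non-activated libraries. The groups overlapped through non-activated replicate 2, which was above activated replicates 1 and 3. It did not pass without the block (log2 0.35 ± 0.15, SE; edgeR adjusted p = 0.109) and passed with the replicate number as a block (0.36; edgeR adjusted p = 0.00673), being higher in all 3 same-number pairs. Leaving out non-activated replicate 2 brought it past the threshold too, with an edgeR adjusted p of 0.0289 in a range of 0.00673 to 0.501, and with both replicate 1 libraries left out it was 0.28 and did not pass (edgeR adjusted p = 0.256). The length the tables gave this gene varied from 1085 to 1769 bases between libraries, so its TPM, at 46.0, 64.9 and 45.9 in activated and 30.1, 61.0 and 27.9 in non-activated libraries, varied more than its CPM. RefSeq places another gene, LOC105244150, over part of it, and the protocols do not state that reads kept strand, so reads of the 2 genes cannot be told apart there.

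Nr4a1 (ENSMUSG00000023034; chromosome 15, 101253902 to 101274795), which encodes Nur77, had 13.7, 5.35 and 5.14 CPM in activated and 4.76, 5.04 and 3.45 CPM in non-activated libraries. Activated replicate 1 alone stood well above the rest, while activated replicates 2 and 3 lay just above the highest non-activated library. Its log2 fold change of 0.88 ± 0.38 (SE) did not pass (edgeR adjusted p = 0.129; 0.0539 to 0.512 over all alternatives). It was 0.23 without activated replicate 1 and 0.29 without both replicate 1 libraries. That library was also the highest for 17 of the 21 T cell genes above, and the part of those cells in the Nr4a1 level was not tested.

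**Figure D2:**
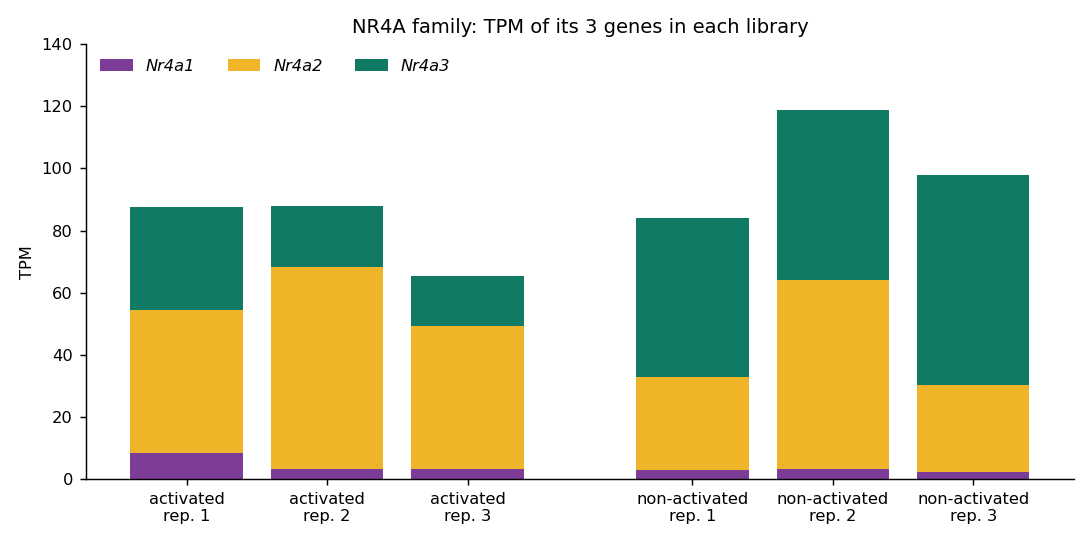
Stacked bars of the TPM of Nr4a1, Nr4a2 and Nr4a3 in each library (y axis from 0), activated on the left and non-activated on the right. Nr4a3 is 22.3% to 37.6% of the bar in the activated libraries and 45.9% to 69.1% of it in the non-activated ones.

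The makeup of the NR4A family thus differed between groups more than its sum. The 3 genes together reached 87.5, 87.8 and 65.4 TPM in activated and 84.0, 119 and 97.9 TPM in non-activated libraries, which overlapped. Nr4a3 made up 37.6%, 22.3% and 24.6% of the family's TPM in activated libraries and 60.6%, 45.9% and 69.1% in non-activated libraries. Nr4a2 was 1.40, 3.32 and 2.85 times as abundant as Nr4a3 in activated libraries and 0.592, 1.12 and 0.412 times in non-activated libraries. The log2 ratio of Nr4a1 over Nr4a3 averaged -2.24 ± 0.29 in activated and -4.35 ± 0.45 in non-activated libraries (SD, n = 3). These ratios did not overlap between groups, while that of Nr4a1 over Nr4a2 did. Nr4a3 enters both ratios that differed, so they are not independent of its own fall. The varying length of Nr4a2 enters the TPM shares and ratios too. For Nr4a2 over Nr4a3 the mean log2 ratio was higher in activated libraries by 1.86 on TPM and by 1.72 on CPM.

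The 3 NR4A promoters are shown because these genes held the same number of matches to one motif there, while only Nr4a3 fell. The sequences are the 250 bases before an annotated start, from RefSeq on GRCm38.p6, 5′ to 3′ on the gene's strand. They lie at chr15:101266596-101266845 (+) for Nr4a1, chr2:57124004-57124253 (-) for Nr4a2 and chr4:48045055-48045304 (+) for Nr4a3. The Nr4a1 stretch lies inside the span given above for that gene. Most of the Nr4a3 stretch lies past the first base of its gene's span, 48045078. Only the Nr4a2 stretch lies wholly before its gene's span, so the 3 are not like regions. Capitals mark TGACG on either strand (CGTCA when read on the other), the half-site of the cAMP response element bound by CREB and Crem, and also GCGNGGGCG, a site of EGR proteins, and TATAAA.
Nr4a1: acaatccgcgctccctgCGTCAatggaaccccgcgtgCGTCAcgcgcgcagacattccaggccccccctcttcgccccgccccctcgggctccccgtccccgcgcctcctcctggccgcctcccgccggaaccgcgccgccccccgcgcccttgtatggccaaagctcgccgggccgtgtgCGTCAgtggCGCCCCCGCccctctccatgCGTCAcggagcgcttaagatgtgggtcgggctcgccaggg
Nr4a2: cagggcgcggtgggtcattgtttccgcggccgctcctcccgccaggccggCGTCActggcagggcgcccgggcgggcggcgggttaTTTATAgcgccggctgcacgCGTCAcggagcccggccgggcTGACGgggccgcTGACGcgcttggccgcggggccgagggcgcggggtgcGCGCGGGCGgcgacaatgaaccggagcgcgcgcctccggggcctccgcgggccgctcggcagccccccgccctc
Nr4a3: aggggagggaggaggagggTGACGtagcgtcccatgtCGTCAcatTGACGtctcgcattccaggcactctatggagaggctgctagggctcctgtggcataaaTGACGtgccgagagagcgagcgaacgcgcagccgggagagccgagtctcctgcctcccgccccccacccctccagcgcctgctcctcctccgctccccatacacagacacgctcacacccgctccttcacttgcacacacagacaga
Each of the 3 held 4 matches of TGACG, and 17.8% of the 32851 promoter entries of the same length held at least 1. The share of entries with 4 matches was not counted, so how usual 4 are is not known here. The full element TGACGTCA, which contains TGACG on both strands, was in none of them and in 1.55% of entries. GCGNGGGCG was found in Nr4a1 and Nr4a2 and in 4.7% of entries, and TATAAA in Nr4a2 and in 12.4%. AAAGGTCA, the element NR4A proteins bind, was in no member's entry and in 1.34% of all. The Egr2 entries, which cover 5 starts, held TGACG, a CArG box (the site of serum response factor, in 1.47% of entries) and a kappaB site (in 5% of entries). The Ier3 and Ier5 entries held no match to the motifs as searched. The letters used for the CArG box and the kappaB site are not given here, so sites of another spelling may be present. Of the 9 genes 6 had an entry. A match describes letters and not binding.

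Crem, whose product binds the cAMP response element and in its short form represses it, fell alongside Nr4a3. It had 27.4, 25.3 and 24.5 CPM in activated against 68.0, 67.2 and 63.4 CPM in non-activated libraries, with log2 -1.36 and an edgeR adjusted p of 1.91e-05. The groups lay far apart, and no library was an exception. The values are per gene and do not tell the short form from the others, and a link to Nr4a3 was not tested.

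The EGR genes varied more between replicate numbers than between groups. Egr1 (ENSMUSG00000038418), the classical member of the family, had 6.24, 15.6 and 10.7 CPM in activated and 6.70, 18.2 and 9.69 CPM in non-activated libraries. The values of the 2 groups ran side by side: replicate 1 was the lowest and replicate 2 the highest in each. Its log2 fold change was -0.09 ± 0.41 (SE; edgeR adjusted p = 0.894), and its sign turned without activated replicate 1 or non-activated replicate 2, so no direction can be given. Without both replicate 1 libraries it was -0.10 (edgeR adjusted p = 0.845). With the replicate number as a block it was -0.06 ± 0.12 (SE; edgeR adjusted p = 0.719).

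Egr2 (ENSMUSG00000037868; chromosome 10, 67534469 to 67542188), known as Krox20 and in T cells as a brake on activation, had 20.9, 38.6 and 38.7 CPM in activated and 21.8, 33.4 and 27.1 CPM in non-activated libraries. The groups overlapped, and both replicate 1 libraries were again the lowest. The log2 fold change was 0.25 ± 0.24 (SE; edgeR adjusted p = 0.485), and 0.23 ± 0.11 with the replicate block (SE; edgeR adjusted p = 0.142). With both replicate 1 libraries left out it was 0.34 and did not pass, at an edgeR adjusted p of 0.081 in a range of 0.061 to 0.876. Leaving out 1 library gave 0.10 to 0.48, with 0.10 without activated replicate 2 or 3, 0.11 without non-activated replicate 1, and 0.48 without activated replicate 1 and 0.42 without non-activated replicate 2. RefSeq places the noncoding gene Gm32255 over part of Egr2.

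Egr3 (ENSMUSG00000033730; chromosome 14, 70077317 to 70082613), often induced together with Egr2, had only 26, 56 and 38 expected counts in activated and 25, 39 and 26 in non-activated libraries. At this depth its log2 fold change of 0.52 ± 0.43 (SE; edgeR adjusted p = 0.419) could not be told from 0, and without both replicate 1 libraries it was 0.65 (edgeR adjusted p = 0.35). It was 0.04 without activated replicate 2, its highest library, and 0.80 without activated replicate 1. The replicate block gave 0.46 ± 0.32 (SE; edgeR adjusted p = 0.295). Within the family the proportions held: Egr2 made up 76.5%, 70.7% and 77.7% of the EGR TPM in activated and 76.1%, 68.0% and 74.9% in non-activated libraries. All 3 ratios between EGR genes overlapped between groups.

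**Figure D3:**
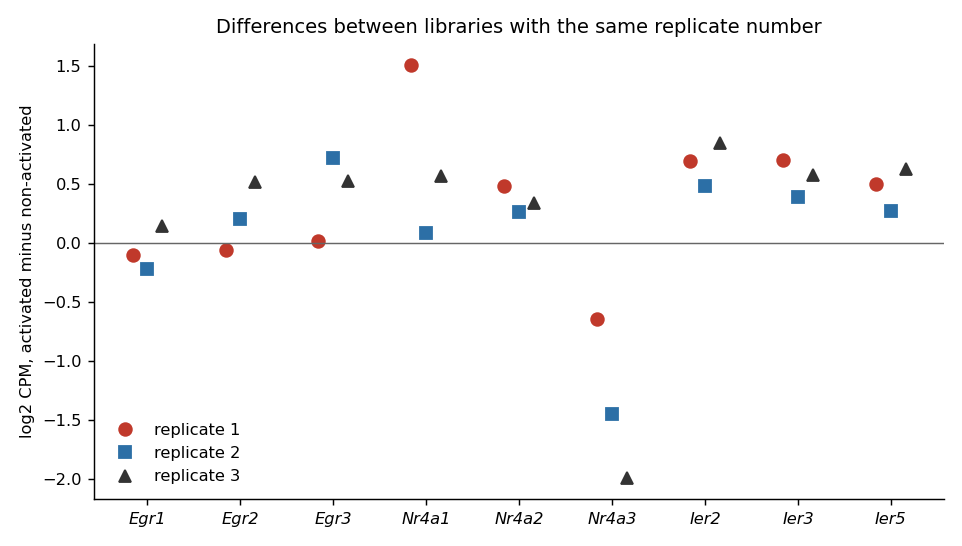
Difference in log2 CPM between the activated and the non-activated library of each replicate number, for the 9 genes; symbols mark the number. Nr4a3 lies below 0 for all 3 numbers, from -0.64 to -1.99, Nr4a1 is at 1.51 for number 1 against 0.08 and 0.57 for numbers 2 and 3, and the IER genes lie between 0.27 and 0.84.

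Libraries with the same number deviated together across all genes, so the number is a pairing by these data. Egr3, Nr4a1, Nr4a2 and the 3 IER genes were higher in the activated library of all 3 pairs, Nr4a3 lower in all 3, Egr2 higher in 2 of 3 and Egr1 higher in 1 of 3. With the number as a block 5 of the 9 genes passed, Nr4a2 being added, against 37.2% of all genes. In CPM 5 of the 9 genes had groups that did not overlap, as did 44.7% of all tested genes.

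**Figure D4:**
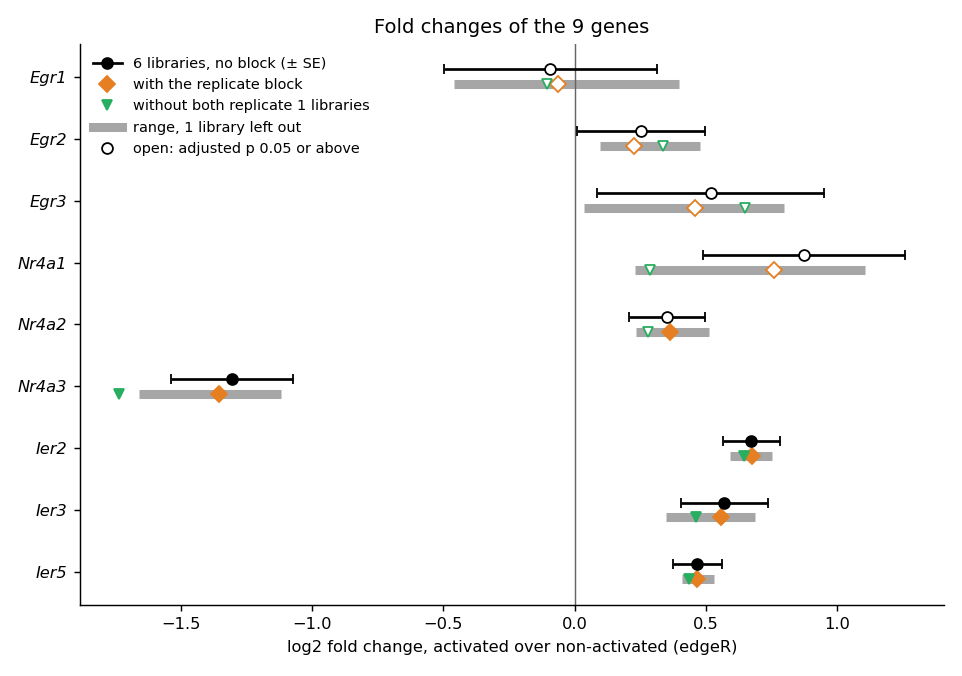
edgeR log2 fold changes of the 9 genes, activated over non-activated: circles with SE for all 6 libraries, diamonds with the replicate block, triangles without both replicate 1 libraries, and grey bars for the range when 1 library is left out; open symbols did not pass. Nr4a3, Ier2, Ier3 and Ier5 pass in all 3 fits, and the bar of Egr1 crosses 0, from -0.46 to 0.40.

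Other early genes were not moved in one direction. Of 14 AP-1, MAF and ATF factors 3 were higher, 1 was lower and 10 did not pass (median log2 0.12). The 4 called are close to the share of all tested genes called, 27.6%. Fos, the best known early gene, fell to 19.9, 26.7 and 26.9 CPM in activated libraries, against 43.8, 43.2 and 37.1 CPM in non-activated libraries (log2 -0.75; edgeR adjusted p = 0.00382). Those that rose were Batf (65.7 ± 6.84 against 33.5 ± 3.55 CPM), a factor that dendritic cell and T cell programmes use, Batf2 (11.7 ± 3.67 against 3.05 ± 0.354 CPM) and Maff (51.2 ± 0.924 against 33.3 ± 2.70 CPM). With the replicate block 7 of the 14 passed, 5 higher and 2 lower, against 37.2% of all genes.

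Of 34 further early response genes 6 were higher and 12 lower, beside 15.9% and 11.7% of all tested genes. The other 16 did not pass, and the median log2 fold change was -0.22. The lower calls numbered 8 without non-activated replicate 1. Dusp2, a nuclear phosphatase that switches off MAP kinases, had 62.3, 32.8 and 27.5 CPM in activated against 3.54, 3.99 and 3.37 CPM in non-activated libraries, the largest rise of the list. The NF-kappaB inhibitor Nfkbia was 2.03-fold higher (activated 1128 ± 91.2 CPM, non-activated 557 ± 24.9 CPM). The G protein regulator Rgs2 (19.1 ± 1.71 against 55.3 ± 7.13 CPM) and the stress gene Gadd45g (35.1 ± 2.28 against 91.7 ± 22.5 CPM) fell. The other genes higher were Phlda1, Nfkbid, Nfkbiz and Tnfaip3, and those lower included the RNA-binding Zfp36 and the phosphatases Dusp4 and Dusp5. On unfiltered TPM Phlda1, Nfkbiz, Zfp36 and Dusp4 lost their calls.

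**Figure D5:**
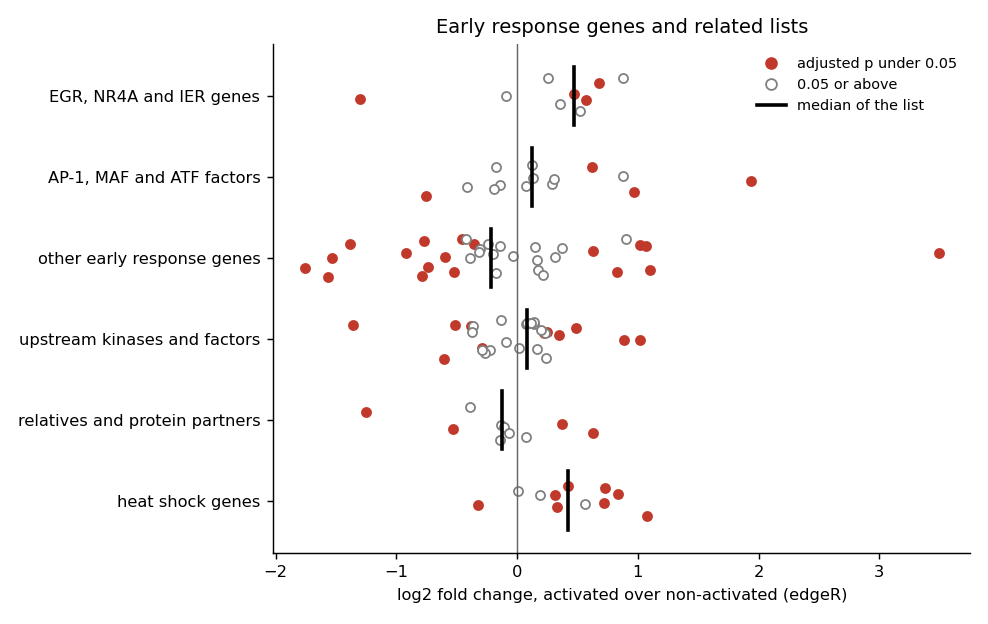
edgeR log2 fold change, activated over non-activated, of each tested gene of the 9 and of 5 related lists; filled points passed an adjusted p of 0.05 and the bar is the list's median. The medians lie between -0.22 (other early response genes) and 0.47 (the 9 genes), and each list holds genes called in both directions.

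Among 28 upstream kinases and factors 6 were higher, 5 lower and 17 did not pass (median log2 0.08). Without 1 library the higher calls ranged from 3 to 6, with 3 left without non-activated replicate 3 and 4 without activated replicate 2 or 3 or non-activated replicate 1 or 2. The kinase gene Map2k1, which encodes MEK1 and acts directly above ERK, rose, at 306 ± 29.1 against 151 ± 11.9 CPM. Elk3, a ternary complex factor that works with serum response factor, was at 58.3 ± 8.30 against 31.6 ± 2.68 CPM. Mef2d, a calcium-responsive factor known to act on Nr4a1 in T cells, was lower by counts (77.5 ± 5.14 against 111 ± 7.97 CPM), a call lost on the deposited TPM (limma adjusted p = 0.137 at most). Crem, given above, had the smallest p of the list.

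Of 12 relatives and partners 10 were tested, 2 higher, 2 lower and 6 not passing (median log2 -0.12), and without non-activated replicate 2 or 3 only 2 passed. Rxra, the retinoid X receptor that pairs with Nr4a1 and Nr4a2, rose to 62.0, 75.0 and 60.9 CPM in activated libraries, against 43.7, 45.3 and 39.2 CPM in non-activated libraries (edgeR adjusted p = 0.00301). Rxrb was at 55.2 ± 5.28 and 60.7 ± 0.693 CPM and did not pass, and Rxrg had no count. Ppp2r2a, a regulatory subunit of protein phosphatase 2A, rose to 57.4 ± 4.77, against 44.5 ± 2.00 CPM, a call lost without non-activated replicate 2 or 3. The corepressors Nab1 (92.9 ± 16.2 against 88.1 ± 4.45 CPM) and Nab2 (9.42 ± 1.61 against 12.4 ± 0.376 CPM) did not pass, and Nab2 passed with the block (edgeR adjusted p = 0.0468). Egr4, the remaining EGR gene, had 2 counts in activated replicate 1 and none elsewhere. Ier5l, the closest relative of Ier5, was lower on few reads (1.10 ± 0.417 against 2.59 ± 0.712 CPM; edgeR adjusted p = 0.0316, up to 0.132 over the alternatives). Its call was lost on TPM, without activated replicate 1 or 3, without non-activated replicate 2 or 3, and without both replicate 1 libraries. Flot1, the next gene beside Ier3, fell (27.2 ± 1.59 against 39.3 ± 5.17 CPM), a call lost on unfiltered TPM. Rcor1 (53.4 against 57.6 CPM), Hsf1 (30.4 against 33.6 CPM) and Ier3ip1 (47.2 against 49.5 CPM) did not pass.

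Heat shock genes are in the pathway on which Ier5 acts and are a common sign of handling stress. Of 11 tested members 7 were higher, 1 was lower and 3 did not pass (median log2 0.42). Over all tested genes 15.9% were higher and 11.7% lower. Dnaja1 (178 ± 16.4 against 100.2 ± 4.66 CPM), Hsp90aa1 (461 ± 55.5 against 279.6 ± 12.2 CPM), Hspd1 (205 ± 27.9 against 124 ± 9.51 CPM) and Hsp90ab1 (1503 ± 27.2 against 1124 ± 60.3 CPM) had the smallest p. In all, 5 members passed without activated replicate 2 or non-activated replicate 2, and 4 without non-activated replicate 3, where Hsp90ab1 lost its call. Hspa1b, among the higher ones, has a near-identical copy, so its reads are uncertain. The lower member was Hsph1 (152 ± 19.5 against 191 ± 10.5 CPM; edgeR adjusted p = 0.0488). Its call was lost without activated replicate 2 or 3 and without any 1 non-activated library. Dnajb1 (50.6 ± 2.57 against 50.5 ± 4.02 CPM), Hspa1a (27.2 ± 9.27 against 18.3 ± 6.34 CPM) and Hspa8 (1325 ± 53.8 against 1161 ± 113 CPM) did not pass. The higher members and the IER genes rose in the same activated libraries, which all genes called higher share. A link between the heat shock genes and the IER genes was not tested. Of other cell types, 1 of 6 B cell markers was tested, Cd79b, at 1.96 ± 0.853 against 0.134 ± 0.131 CPM. It had enough reads to be tested only through the activated libraries, so a lower call was not open to it. The B cell list summed to 2.08 to 3.24 CPM in activated and 0.457 to 0.730 CPM in non-activated libraries. Of 8 macrophage and monocyte markers 1 was higher (Mertk, 32.9 ± 3.01 against 12.1 ± 1.44 CPM) and 2 were lower, among them Fcgr1 (43.6 ± 8.78 against 61.6 ± 7.77 CPM). The list summed to 2809 to 4332 CPM in activated and 3154 to 4159 CPM in non-activated libraries. The Fcgr1 call was lost on TPM, without activated replicate 1 or 3, without non-activated replicate 1 or 2, and without both replicate 1 libraries. Of 9 neutrophil and mast cell markers only Kit was tested, and it fell (32.4 ± 9.67 against 67.1 ± 3.91 CPM).

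The genes whose CPM ran most like each called gene over the 6 libraries are given as a description, since with so few libraries many genes correlate closely. Rpl27a (Pearson r = 0.998) and Gm42632 (0.996) were closest to Nr4a3, Dgcr8 (0.998) and Ythdc2 (0.995) to Ier2, Zap70 (0.996) and Gpr19 (0.995) to Ier3, and Ppp1r15b (0.999) and Morc3 (0.996) to Ier5. Between 167 and 406 tested genes had an r above 0.95 with one of the 4. Zap70, a T cell gene, shared with Ier3 its highest value in activated replicate 1, at 4.27 CPM against 0.638 and 0.980 CPM in activated replicates 2 and 3 and 0.081 to 0.457 CPM in non-activated libraries.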

How the data were processed

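RNA of 6 libraries was sequenced as single reads of 60 bases from a NEBNext Ultra kit, per the labels' protocols. The authors deposited RSEM-style gene tables with an expected count, TPM and FPKM per gene, per the file headers; FPKM served no test. The effective length behind the TPM was most often the gene length less 179 bases. File names carry a human build, but the 41813 IDs are mouse Ensembl genes, and the submitters' processing notes name GRCm38; which aligner served the RNA reads is not stated in them. Symbols came from a gene ID table (41597 matched).

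Expected counts were rounded and tested with edgeR 4.0.16 (R 4.3.3): filterByExpr, TMM, glmQLFit and glmQLFTest, group as the only term, Benjamini-Hochberg over 13946 genes, threshold 0.05. SE is the log2 fold change over the root of F. Log2 CPM used a prior count of 2. Alternatives were other scaling, no filter, DESeq2 1.42.0, limma 3.58.1 on log2(TPM + 1) or log2(TPM + 0.1), the replicate block, each library left out, and, chosen after seeing the data, both replicate 1 libraries left out. Deviations from group means correlated at 0.398, 0.313 and 0.187 for libraries of the same number and at -0.315 to 0.040 for others, so numbers pair the libraries by these data. No 2 libraries agreed within sampling noise. The methods were tested on simulated counts.

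The members and the 10 gene lists were chosen with earlier results of these data known. Genes named besides the 9 are the 4 called genes of smallest p in each list, all relatives and partners, and the 2 most correlated genes for each called member. Trac, Trbc1, Trbc2, Cd3e, Itgax, H2-Aa, H2-Eb1, Hspa1b, Hsph1, Dnajb1, Hspa1a and Hspa8 fall outside this rule and were chosen after their values were seen. So were the further called early genes named without values. Values of some list genes are not reported here.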

Additional observations from a re-analysis of the deposited data

How the results depend on the processing

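The calls of Ier2, Ier5 and Nr4a3 held under all 15 alternatives. With the replicate block Nr4a2 passed (log2 0.36) and the AP-1, MAF and ATF factors had 7 calls in place of 4, and it changed no other call among the 9 genes. The log2 fold change of Ier3 missed the threshold with library size alone (0.50) and on unfiltered TPM (0.54). Leaving out 1 library gave log2 ranges of -0.46 to 0.40 for Egr1, whose sign turned without activated replicate 1 (0.17) or non-activated replicate 2 (0.40), 0.10 to 0.48 for Egr2, 0.04 to 0.80 for Egr3, 0.23 to 0.51 for Nr4a2 and 0.35 to 0.69 for Ier3. It gave 2 to 4 calls among relatives and partners, 4 to 7 among heat shock genes and 2 to 6 among T cell markers. On unfiltered TPM 1882 genes passed in place of 3848, with 11 of the other early response genes, 5 upstream genes, 2 relatives and partners, 4 heat shock genes and 2 T cell markers. On filtered TPM 7 upstream genes passed with either pseudocount and, with 1 added, 3 T cell markers. Without a filter on counts 14 T cell markers passed. The causes were not tested. With 3 libraries a group the spread between libraries, and for Egr3 and Ier5l also the read number, limits these values.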
